A study of Mus with 12 samples.

Results

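Tceal7, Mamdc2, Scgb1a1, Awat1 and Sfrp5 are 5 genes with little described function in macrophages whose RNA was far more abundant in knockout (KO) than in wild-type (WT) mouse peritoneal macrophages. They were picked by symbol from a deposited table of 27294 genes because their KO columns were well above their WT columns, with and without treatment, and no numeric threshold went with that choice. All 5 were among the 17291 genes tested, and Awat1 and Sfrp5 passed the filter on low counts through their KO libraries. The levels in KO and WT are therefore given as a description with no test. The change with treatment inside each genotype was not itself what picked the genes. It was measured in the same libraries, and low WT levels with and without treatment were part of the choice. It was tested, with p-values that are not independent of that choice. The exception is Awat1 and Sfrp5 in WT, where they were too low to be kept by that group and are given as counts.

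RNA sequencing was done on 12 libraries of primary peritoneal macrophages in 4 groups of 3: WT and KO, each without a treatment label and with the label oxLDL. Oxidised low-density lipoprotein (oxLDL) is a modified cholesterol carrier that macrophages take up as they become foam cells, and the library names say LDL where the treatment label says oxLDL. The gene removed in KO is not named in the sample labels, and WEE1, a kinase that holds back entry into mitosis, stands in the title of the series. The sources used here do not give strain, age, sex, the driver and extent of the deletion, or the dose and length of treatment, and the extraction text speaks of adipose RNA. Nothing states that the 3 libraries of a group came from separate mice, so the tests measure the spread between these libraries, which may be technical.

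The 5 proteins belong to unrelated families. Tceal7 is a small nuclear protein of the TCEAL family, whose genes lie together with the related BEX genes on the X chromosome. Mamdc2 is a secreted proteoglycan built from MAM domains, modules that are also found in adhesion receptors. Scgb1a1 is the secretoglobin of airway club cells, abundant in the fluid lining the airways. Awat1 joins long-chain alcohols to fatty acids to make wax esters in sebaceous glands. Sfrp5 is a secreted decoy that binds WNT ligands and keeps them from Frizzled receptors, and it is best known from adipose tissue. The term non-immune does not hold for every one of them in the annotation deposited with the table. That annotation lists repression of NF-kappaB activity for Tceal7, and it lists restraint of interferon gamma production, T cell proliferation and inflammation for Scgb1a1. No immune term was listed for Mamdc2, Awat1 or Sfrp5.

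Library totals ran from 53588814 to 76809931 counts. Wee1 was at 2.80 to 3.25 FPKM in untreated WT, 1.44 to 1.78 in WT with oxLDL, 1.22 to 1.63 in untreated KO and 1.25 to 1.60 in KO with oxLDL. FPKM is the number of fragments scaled to transcript length and library size, so levels of different genes can be compared on that scale. The 8 macrophage markers summed to 21100 to 21500 FPKM in untreated WT, 14900 to 15900 in WT with oxLDL, 11100 to 11800 in untreated KO and 10700 to 11300 in KO with oxLDL. Lyz2 made up most of each sum, at a mean of 18500, 12500, 8860 and 8540 FPKM in these groups. With oxLDL in WT, 6 of the 8 were called higher and 2 lower, where 23.9% and 27.2% of all tested genes were called. Low counts were not independent reads: where the other 2 replicates averaged 8 to 15 counts and neither was 0, 16.3% of values were 0, against 0.00764% for independent reads. Counts of 4, 8 and 12 were also more frequent than those on either side (10290 values of 4, against 4912 of 3 and 3287 of 5). This touches the WT values of Awat1, Sfrp5, Scgb1a1 and Tceal7, so a 0 there is weaker evidence of a low level than a 0 of single reads would be. In bulk RNA, fewer cells of a type and less RNA per cell cannot be told apart.

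Mamdc2 was the most abundant of the 5 (Ensembl ENSMUSG00000033207, GRCm38 chromosome 19, 23302609 to 23448442, minus strand). Its level in untreated WT replicates 1, 2 and 3 was 1.86, 2.18 and 2.57 FPKM, and in WT with oxLDL it was 0.334, 0.367 and 0.335 FPKM. In KO it was 45.7, 42.3 and 42.8 FPKM untreated and 42.4, 43.1 and 41.5 FPKM with oxLDL. Every KO library was far above every WT library, the treated WT libraries were the lowest, and the KO groups overlapped. Per effective library size the counts were 21.3-fold higher in KO than in WT untreated and 99.6-fold higher with oxLDL, which edgeR fitted as log2 differences of 4.41 ± 0.09 and 6.63 ± 0.11 (SE, n = 3 libraries a group). With oxLDL, Mamdc2 fell in WT by 2.26 ± 0.11 on the log2 scale (edgeR quasi-likelihood, Benjamini-Hochberg adjusted p = 2.62e-10), from 2.20 ± 0.357 to 0.345 ± 0.0190 FPKM (SD, n = 3). In KO the fitted oxLDL difference was -0.04 ± 0.07 (edgeR adjusted p = 0.997).

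Tceal7 had the same order of groups at a lower level (ENSMUSG00000079428, GRCm38 chromosome X, 136214779 to 136226100, plus strand). Untreated WT replicates held 0.533, 0.757 and 0.310 FPKM from 53, 53 and 30 counts, and WT with oxLDL held 0, 0.0482 and 0.110 FPKM from 0, 4 and 12 counts. KO held 11.3, 12.3 and 11 FPKM untreated and 12.4, 9.43 and 8.26 FPKM with oxLDL. The WT groups did not overlap with each other or with KO, and the KO groups did overlap. Counts were 24.1-fold higher in KO than in WT untreated and 132-fold higher with oxLDL, or 4.56 ± 0.35 and 7.02 ± 0.45 as fitted log2 differences. The treated ratio rests on 16 WT counts, and its fitted value was 6.36 without WT oxLDL replicate 1 and 8.30 without WT oxLDL replicate 3. With oxLDL, Tceal7 fell in WT by 2.66 ± 0.55 on the log2 scale (edgeR adjusted p = 0.000892). The difference in KO was -0.20 ± 0.28 (edgeR adjusted p = 0.992), with KO replicate 1 at the top of the treated group.

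Scgb1a1 overlapped with Tceal7 in its KO levels (ENSMUSG00000024653, GRCm38 chromosome 19, 9083636 to 9087958, minus strand). Untreated WT replicates held 0.438, 0.980 and 1.12 FPKM, and WT with oxLDL held 0.733, 0.570 and 0 FPKM, from 28, 16 and 0 counts. KO held 13.1, 11.7 and 10.2 FPKM untreated and 12.8, 10.4 and 13.2 FPKM with oxLDL. The KO libraries were again all above the WT libraries, but here the WT groups overlapped. Counts were 14.9-fold higher in KO untreated and 22.7-fold higher with oxLDL, the smallest ratios of the 5 (fitted 3.88 ± 0.53 and 4.48 ± 0.57). The treated value was 5.2 without WT oxLDL replicate 1 and 3.85 without WT oxLDL replicate 3. No oxLDL change was called in WT (-0.54 ± 0.62, edgeR adjusted p = 0.506) or in KO (0.06 ± 0.45, edgeR adjusted p = 1.0). Without WT oxLDL replicate 3, the library at 0, the fitted WT difference was 0.08.

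Sfrp5 was close to the detection limit in WT (ENSMUSG00000018822, GRCm38 chromosome 19, 42197971 to 42202252, minus strand). Untreated WT replicates held 0.0480, 0.109 and 0 FPKM from 8, 12 and 0 counts, and the 3 treated WT libraries were at 0. KO held 1.39, 1.54 and 1.30 FPKM untreated, from 208, 234 and 195 counts, and 1.35, 1.79 and 1.68 FPKM with oxLDL. All 6 KO libraries thus lay above 1 FPKM and all 6 WT libraries at or near 0. Counts were 31.3-fold higher in KO untreated (fitted 4.89 ± 0.60, which was 4.25 without WT replicate 3 and 5.79 without WT replicate 2). With oxLDL the ratio was 58.8 against a floor of 3 counts per library set in place of the WT zeros. That floor is meant for single reads, and low counts here were not independent reads, so 58.8 is not a firm lower bound.

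Awat1 was, like Sfrp5, at or near 0 in WT (ENSMUSG00000015665, GRCm38 chromosome X, 100572251 to 100578205, plus strand). Untreated WT replicates held 0.0355, 0.0909 and 0 FPKM from 4, 8 and 0 counts, and the 3 treated WT libraries were at 0. KO held 1.41, 1.16 and 1.21 FPKM untreated, from 155, 130 and 133 counts, and 1.31, 0.895 and 1.27 FPKM with oxLDL. The lowest KO library, replicate 2 with oxLDL, was still far above the highest WT library. Counts were 34.2-fold higher in KO untreated (fitted 4.99 ± 0.65, which was 4.36 without WT replicate 3 and 6.13 without WT replicate 2). With oxLDL the ratio was 31.1 against the same floor, with the same limit. Both floor values depend on the floor chosen and are not compared with the untreated ratios.

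**Figure D1:**
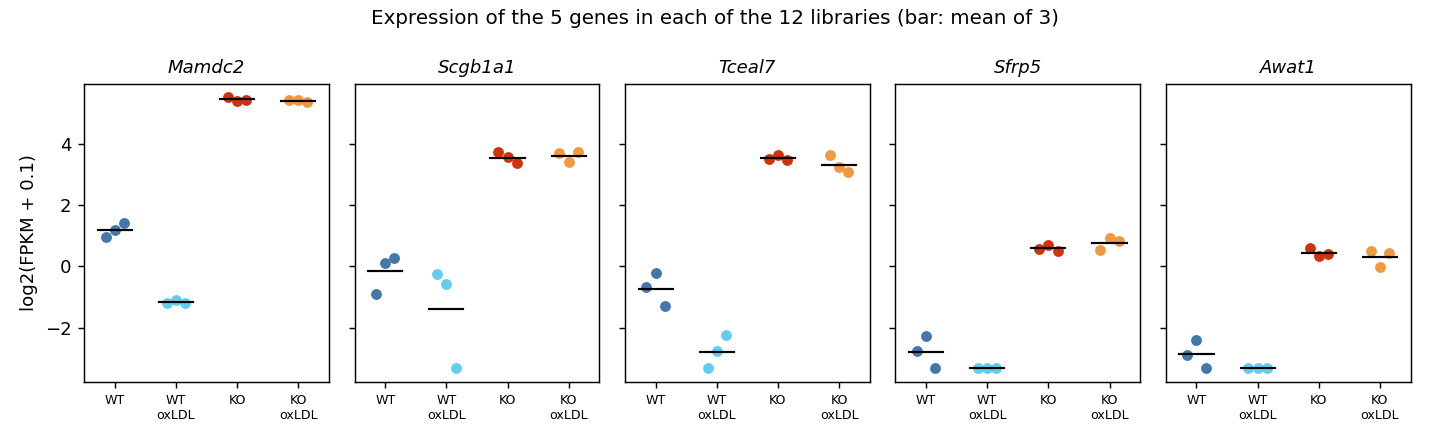
Expression of the 5 genes as log2(FPKM + 0.1), 1 panel a gene, with 1 point for each of the 3 libraries of a group and a bar at the mean of the log2 values. All KO points lie above all WT points in each panel, and the treated WT points of Mamdc2 lie below the untreated ones (0.334 to 0.367 against 1.86 to 2.57 FPKM).

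In untreated KO the FPKM levels ran from Mamdc2 at 43.6 ± 1.86 through Scgb1a1 at 11.7 ± 1.43 and Tceal7 at 11.5 ± 0.683 to Sfrp5 at 1.41 ± 0.118 and Awat1 at 1.26 ± 0.133 (SD, n = 3). Scgb1a1 and Tceal7 overlapped, as did Sfrp5 and Awat1, so neither pair can be ordered. In untreated WT, Mamdc2 was also the highest, Scgb1a1 (0.846 ± 0.360) and Tceal7 (0.533 ± 0.224) overlapped, and Sfrp5 and Awat1 were at or near 0. Ordered by group, KO with and without oxLDL overlapped for all 5 genes and lay above both WT groups, and untreated WT was separated from WT with oxLDL for Mamdc2 and Tceal7. Among all tested genes the untreated KO difference ranked 60th for Awat1, 62nd for Sfrp5, 70th for Tceal7, 76th for Mamdc2 and 88th for Scgb1a1, counted from the highest.

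The oxLDL comparison asked how each gene moved on treatment within a genotype. In WT, Mamdc2 and Tceal7 fell with no overlap between the groups and Scgb1a1 was not called, where 51.2% of all tested genes were called, 27.2% lower and 23.9% higher. The share of all tested genes whose groups overlap is not given, in WT or in KO. Overlap or its absence, here and above, is therefore not read as particular to these genes. The Tceal7 fall was 2.66 on the log2 scale, and the fitted value was -2.02 without WT oxLDL replicate 1 and -3.96 without WT oxLDL replicate 3. Awat1 had 12 and Sfrp5 had 20 counts over the 3 untreated WT libraries against 0 in the treated ones. Their groups overlapped, since untreated replicate 3 was also at 0, and no fold or test is given.

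In KO, none of the 5 genes was called with oxLDL, where 0.0116% of all tested genes, 2 in number, were called. The ratios of treated to untreated counts in KO were 0.87 for Tceal7, 0.971 for Mamdc2, 1.04 for Scgb1a1, 0.917 for Awat1 and 1.14 for Sfrp5. The treated and untreated KO groups overlapped for each gene. The oxLDL difference in KO minus that in WT was 2.46 ± 0.63 for Tceal7, 2.22 ± 0.13 for Mamdc2 and 0.60 ± 0.76 for Scgb1a1 on the log2 scale. It is given as a value with no test, because it is also the change of the KO against WT difference that picked the genes.

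**Figure D2:**
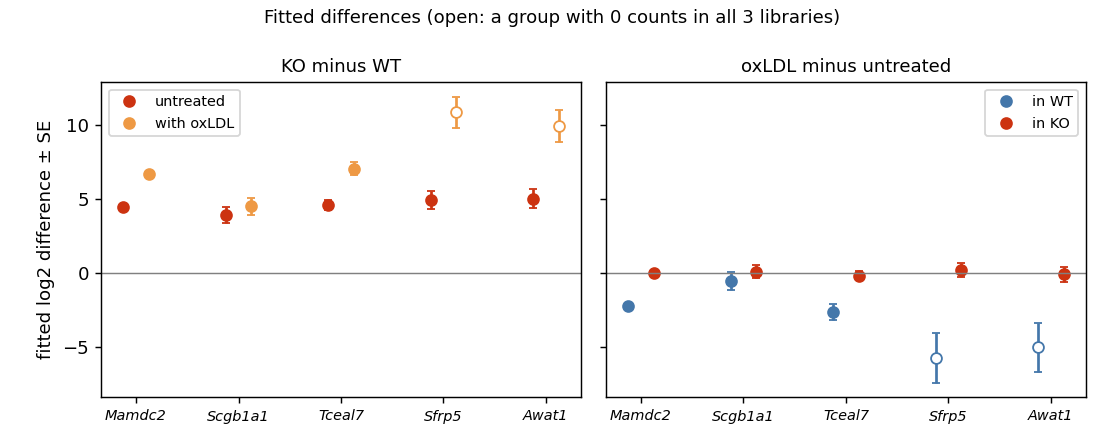
Fitted log2 differences ± SE from edgeR for the 5 genes, KO minus WT on the left and oxLDL minus untreated on the right, with open points where a group has 0 counts in all 3 libraries, so that the size depends on the prior count. The KO points on the right lie at or near 0 (-0.20 to 0.19), and the Mamdc2 and Tceal7 points for WT lie at -2.26 and -2.66.

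Across the 12 libraries the 5 profiles were similar, with pairwise Pearson r of log2 CPM from 0.722 for Tceal7 and Scgb1a1 to 0.997 for Awat1 and Sfrp5. These are descriptions: the points share 2 genotypes, and the genes were picked for that split. After each group's mean was removed, r was 0.969 for Awat1 and Sfrp5 and ranged from -0.725 to 0.292 for the other pairs. The 0.969 rests on untreated WT replicate 3, where both genes had 0 counts and the prior count set log2 CPM to -7.181. Untreated WT replicates 1 and 2 were at -4.196 and -2.866 for Awat1 and -3.29 and -2.305 for Sfrp5. It is not read as shared variation. Awat1 and Sfrp5 had 0 counts in the same 4 WT libraries, while in both KO groups replicate 2 was the lowest for Awat1 and the highest for Sfrp5. The genes most like each member in log2 CPM over the 12 libraries were found among all tested genes. Arhgap25 was closest to Mamdc2 (r = 0.999), with 34.1, 15.3, 94.2 and 94.0 FPKM in untreated WT, WT with oxLDL, untreated KO and KO with oxLDL. Aplp2 and Gprc5b followed (both r = 0.998), and 687 genes had r of at least 0.95 with Mamdc2. Closest to Tceal7 were the adenylate kinase gene Ak8 (r = 0.987), Rtf1 (r = 0.983) and its own neighbour Tceal9 (r = 0.982), among 176 genes at that limit. Scgb1a1 had 6 such genes, led by Ripor3 (r = 0.987), Gclc (r = 0.967) and Adgrg1 (r = 0.958). Besides each other, Awat1 was close to Fem1b (r = 0.985), and Sfrp5 to Fem1b (r = 0.982) and the chemokine receptor gene Ccr2 (r = 0.980). Pearson r does not measure the size of a change, and these genes differed in it. In the same group order Rtf1 was at 8.24, 5.52, 8.64 and 8.42 FPKM and Gclc at 9.1, 6.36, 9.76 and 9.84. Fem1b was at 14.4, 9.53, 18.3 and 17.8, and Ripor3 at 0.0434, 0.0295, 0.718 and 0.639.

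The 5 genes lie on 2 chromosomes, 3 on chromosome 19 and 2 on X. Genes higher in untreated KO made up 14.8% of all tested genes, 14.1% on chromosome 19 (84 of 595) and 19.9% on X (110 of 553). To see whether the surroundings of each gene moved with it, the 5 nearest tested genes on either side were read from the same fit. Of these 50 neighbours, 12 were higher and 2 lower in untreated KO, where 31.0% of all tested genes were called and 16.2% were lower, and their median log2 difference was 0.06 against -0.01 for all tested genes. Tceal7 held 5 of the 12, Awat1 3, Sfrp5 2, and Mamdc2 and Scgb1a1 1 each.

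Beside Scgb1a1, Ahnak, which codes for a giant scaffold protein, ends 6.72 kb away and rose from 163 ± 1.3 to 262 ± 20 FPKM (SD, n = 3; log2 0.79 ± 0.05, edgeR adjusted p = 1.48e-08). Asrgl1, an asparaginase gene on its other side, was at 0.606 in WT and 0.951 FPKM in KO and missed the threshold (edgeR adjusted p = 0.0544). Beside Mamdc2, Smc5, of the SMC5/6 chromosome maintenance complex, was lower by a small amount (-0.18 ± 0.06, edgeR adjusted p = 0.0345), a call lost when any of 5 untreated libraries was left out (WT replicates 1, 2 and 3, KO replicates 1 and 2) and with no filter. On the other side Gm9493, 171 kb away, had a difference of 0.02 ± 0.17. Klf9, 134 kb away on the Smc5 side, was the 1 neighbour of Mamdc2 called higher (1.11 ± 0.08, edgeR adjusted p = 4.32e-08). The nearest genes of Awat1, Igbp1 (-0.04 ± 0.06) and Pdzd11 (-0.05 ± 0.10), and of Sfrp5, Zfyve27 (0.05 ± 0.10) and Golga7b (1.81 ± 1.80), were not called. Further along from Awat1, Kif4, a mitotic kinesin gene 47.5 kb away, was lower (-1.43 ± 0.24, edgeR adjusted p = 0.000345), and Dlg3, a scaffold protein gene 190 kb away, was higher (1.60 ± 0.15, edgeR adjusted p = 7.88e-07). Zfyve27 lies 3.38 kb from Sfrp5 and was at 3.5 ± 0.320 FPKM in WT and 3.38 ± 0.130 in KO.

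**Figure D3:**
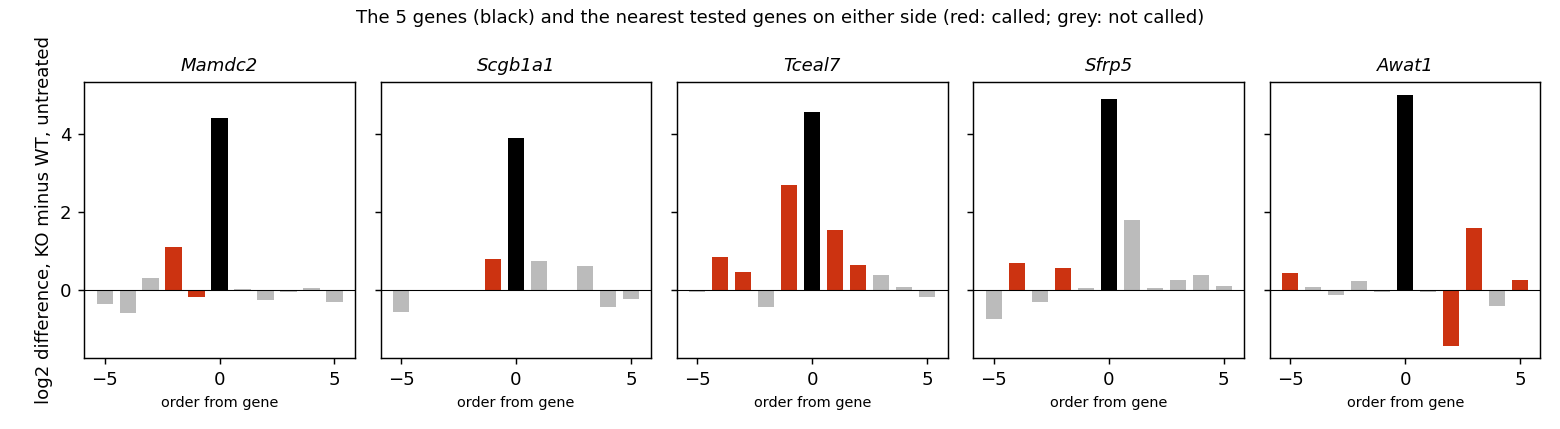
Fitted log2 difference, KO minus WT untreated, of each of the 5 genes (black, at 0) and of the 5 nearest tested genes on either side in order of coordinate, red where called and grey where not. The Tceal7 panel has 5 red bars, all upward, and in the other panels the bars beside the black one are small or grey apart from Ahnak at 0.79.

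Of the 5 neighbourhoods, that of Tceal7 held the highest number of genes called higher. Of the TCEAL and BEX genes and the elongation factor S-II genes they are named after, 9 were tested besides Tceal7. In untreated KO, 4 of these 9 were higher and 1 was lower (median log2 0.39), where 14.8% of all tested genes and 19.9% of those on X were called higher and 16.2% of all were lower. Bex1, a signalling adaptor gene known from neurons, overlaps Tceal7 by 735 bp on the opposite strand. Whether strand was used in counting is not stated, so reads in that overlap cannot be told apart. Bex1 was at 4.37 to 8.06 FPKM in untreated WT, 0.375 to 0.769 in WT with oxLDL, 34.4 to 43.9 in untreated KO and 48.4 to 58.4 in KO with oxLDL. Like Tceal7 it was lowest in treated WT and far higher in KO, but its KO groups did not overlap and the treated one was higher. Its untreated KO difference was 2.70 ± 0.19 (edgeR adjusted p = 3.38e-08). Tceal9, 19.0 kb from Tceal7 on the other side, was at 42.5 to 46.6 FPKM in untreated WT, 12.4 to 19.4 in WT with oxLDL, 117 to 124 in untreated KO and 102 to 131 in KO with oxLDL. Its untreated KO difference was 1.53 ± 0.13 (edgeR adjusted p = 2.39e-07). Tceal8 (0.46 ± 0.10, edgeR adjusted p = 0.00324) and Bex3 (0.64 ± 0.16, edgeR adjusted p = 0.00667) were the other 2 that were higher. Tcea1, which codes for the elongation factor itself and is not a member of the X-linked cluster, was lower (-0.35 ± 0.05, edgeR adjusted p = 5.91e-05).

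With oxLDL in WT, 6 of the 9 were lower and 1 was higher, where 27.2% of all tested genes were lower and 23.9% higher (median log2 -0.86, against -0.06 for all tested genes). Among the 6 was Tceal5, with 6, 12 and 3 counts in untreated WT and 0 in every treated WT library, so its call rests on low counts. Tceal5 is also counted below among those higher in KO with oxLDL and those more positive in the interaction test. Bex1 fell by 3.01 ± 0.24, Tceal9 fell by 1.02 ± 0.13 and Tceal8 fell by 0.86 ± 0.11 on the log2 scale (edgeR adjusted p = 8.55e-08, 1.16e-05 and 8.31e-06), and Tcea1 rose by 0.95 ± 0.05 (edgeR adjusted p = 6.32e-10). With oxLDL in KO, none of the 9 was called. Bex1 differed by 0.53 ± 0.17 there (edgeR adjusted p = 0.45). With oxLDL in both genotypes, 7 of the 9 were higher in KO and 1 was lower, where 57.9% of all tested genes were called, 30.6% higher and 27.4% lower. The oxLDL change itself was more positive in KO than in WT for 6 of the 9 and more negative for 1 by edgeR's interaction test, where 41.7% of all tested genes were called, 22.1% and 19.6% in these directions. The untreated genotype and WT oxLDL comparisons share the untreated WT libraries, so these counts are set side by side and not as support for each other.

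**Figure D4:**
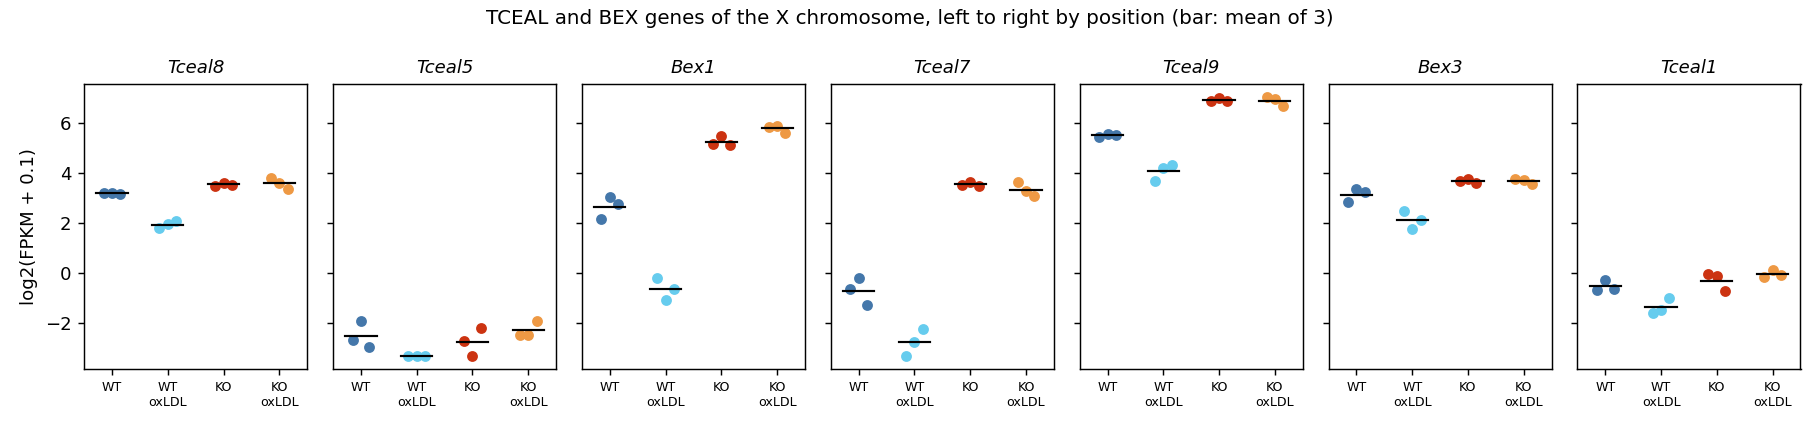
Expression of Tceal7 and the 6 other tested TCEAL and BEX genes of the X chromosome as log2(FPKM + 0.1), left to right by position, with 1 point a library and a bar at the mean of the log2 values of 3. Bex1, Tceal7 and Tceal9 stand side by side with treated WT lowest and both KO groups above WT (untreated KO 34.4 to 43.9, 11 to 12.3 and 117 to 124 FPKM), while Tceal5 is near 0 in all groups and the Tceal1 and Bex3 groups lie closer together.

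The families of the other 4 genes held few calls or calls in both directions in untreated KO, where 14.8% of all tested genes were higher and 16.2% lower. Of 8 secretoglobin genes looked for, Scgb1a1 was the one tested. Of 10 other tested genes of MAM domain proteins, none was higher and 2 were lower. These were Ptprm, a receptor phosphatase gene that fell by 3.34 ± 0.12 on the log2 scale (edgeR adjusted p = 1.27e-11; 1.80 to 2.25 FPKM in WT, 0.164 to 0.199 in KO), and the semaphorin receptor gene Nrp2, which fell by 1.36 ± 0.05 (edgeR adjusted p = 1.31e-11; 76.6 to 84.3 FPKM in WT, 28.5 to 29.4 in KO). Their median was -0.55. Of 6 other tested genes of wax, triglyceride and sterol ester synthesis, 3 were higher and 2 lower. Soat1, which esterifies cholesterol for storage, was at 87.8 to 91.2 FPKM in WT and 125 to 128 in KO (log2 0.61 ± 0.03, edgeR adjusted p = 1.9e-09). Far1, which makes the fatty alcohols used in wax and ether lipids, rose by 0.52 ± 0.05 (edgeR adjusted p = 9.61e-07). Dgat2, a triglyceride synthesis gene of the same family as Awat1, fell by 2.09 ± 0.38 (edgeR adjusted p = 0.000521) from 0.106 to 0.211 FPKM in WT to 0.0164 to 0.0472 in KO, a call lost with limma on log2(FPKM + 1). Soat2 was also lower (-1.39 ± 0.47, edgeR adjusted p = 0.0385), a call lost without any of 4 untreated libraries (WT replicates 1 and 2, KO replicates 1 and 3) and with no filter.

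WNT ligands bind Frizzled and LRP receptors at the cell surface, and beta-catenin then accumulates and acts with TCF factors on target genes. Sfrp5 was the most abundant secreted WNT antagonist tested in KO. Of the other 3 tested, Dkk2, an LRP-binding antagonist, rose from 0.0533 to 0.0654 FPKM in WT to 0.135 to 0.246 in KO (log2 1.88 ± 0.46, edgeR adjusted p = 0.00548). Dkk3 (0.39 ± 0.47) and Notum were not called, and Sfrp1, Sfrp2, Frzb and Sfrp4 were at 0 in 9 to 11 of the 12 libraries. Of 5 tested WNT ligands, 1 was lower and none higher: Wnt6 was at 0.522 to 0.716 FPKM in WT and 0 to 0.0181 in KO (edgeR adjusted p = 0.000134). Of 13 receptors, 2 were higher and 2 lower, shares near those of all tested genes (14.8% and 16.2%). Fzd7 (7.38 to 8.11 FPKM in WT, 16.0 to 17.5 in KO) and Fzd1 (5.0 to 5.72 in WT, 11.1 to 11.8 in KO) rose by 1.24 ± 0.05 and 1.23 ± 0.07 (edgeR adjusted p = 1.64e-10 and 4.2e-09). Ryk (-0.78 ± 0.23, edgeR adjusted p = 0.0198) and Fzd5 (-0.33 ± 0.11, edgeR adjusted p = 0.0282) were lower. The Ryk call was lost without WT replicate 3 or KO replicate 2, and the Fzd5 call without WT replicate 1 or 2 or KO replicate 1 or 3 and with no filter.

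Of 13 signal transducers, 3 were higher and 1 lower, again against 14.8% and 16.2% of all tested genes. Ctnnb1, the beta-catenin gene, was at 150 to 160 FPKM in WT and 213 to 222 in KO (log2 0.59 ± 0.03, edgeR adjusted p = 3.08e-09). Wls, which carries WNT ligands to the surface, rose by 0.24 ± 0.05 (edgeR adjusted p = 0.00323), a call that library totals and limma did not give. Tcf7l2, a TCF factor gene, fell by 0.59 ± 0.15 (edgeR adjusted p = 0.00601). Of 8 beta-catenin target and feedback genes, 3 were higher and none lower. Apcdd1, a membrane inhibitor of WNT signalling, rose by 1.64 ± 0.41 (edgeR adjusted p = 0.0065) at 0.0737 to 0.124 FPKM in KO. Nkd1 (edgeR adjusted p = 0.0362) and Myc (edgeR adjusted p = 0.0417) were called with less margin. Nkd1 was at or near 0 in WT (0 to 0.00744 FPKM, against 0.0111 to 0.133 in KO), so its call rests on low counts. The Nkd1 call was lost without WT replicate 1 or 3, KO replicate 3 or KO oxLDL replicate 1 or 2, with no filter and with both limma fits. The Myc call was lost without WT replicate 1 or 2, KO replicate 1 or 3 or KO oxLDL replicate 2, with library totals, with no filter and with both limma fits. The medians of the 4 WNT lists after the antagonists were 0.19 for ligands, 0.09 for receptors, 0.08 for transducers and 0.48 for targets, against -0.01 for all tested genes.

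**Figure D5:**
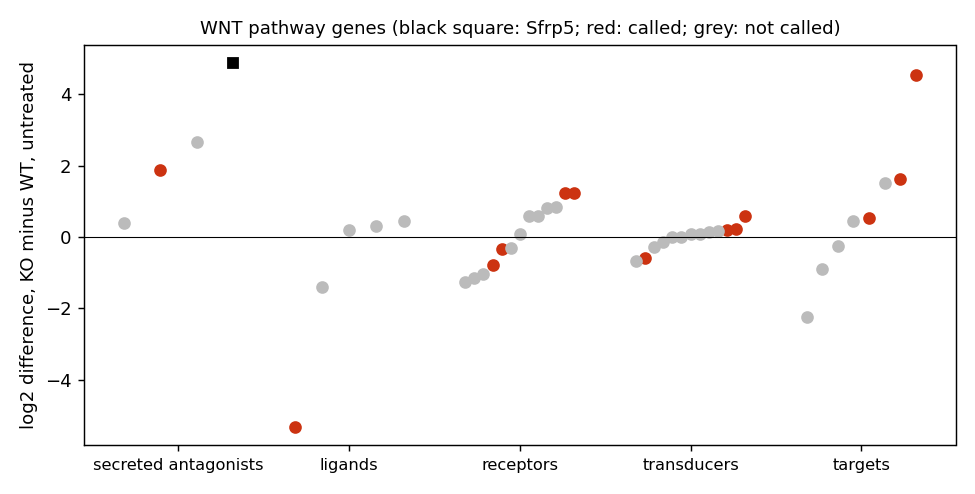
Fitted log2 difference, KO minus WT untreated, of the tested WNT pathway genes in 5 groups, red where called, grey where not and a black square for Sfrp5. Points lie on both sides of 0 among ligands, receptors, transducers and targets, and Sfrp5 is at 4.89.

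Markers of the cell types in which these genes are best known were looked for in all libraries. For airway epithelium, where Scgb1a1 is a defining gene, 3 of 11 markers were analysed here. They summed to at most 0.0956 FPKM in untreated KO and 0.0571 in untreated WT, and Cldn18 was at 0 in 11 of 12 libraries. For sebaceous gland, where Awat1 is expressed, 5 of 6 markers summed to 0.340 to 0.432 FPKM in untreated WT and 0.25 to 0.390 in untreated KO. Nearly all of this was Far2, and Elovl3 and Dgat2l6 were at 0 in 11 of 12 libraries. For adipocytes, 3 of 7 markers summed to at most 0.140 FPKM in untreated KO, with Adipoq at 0 in 10 of 12 libraries. None of these 3 lists had a gene called in untreated KO, but only 2 airway genes, 1 sebaceous gland gene (Far2) and 1 adipocyte gene were tested.

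Markers of other cells did move with genotype. Among all tested genes, 14.8% were higher in untreated KO and 16.2% lower. The 4 endothelial markers analysed summed to 9.99 to 10.8 FPKM in untreated WT and 23.6 to 24.8 in untreated KO, with 2 called higher. Vwf carried the rise (6.03 to 6.73 FPKM in WT, 19.2 to 20.2 in KO), while Cdh5 was at most 0.0880 FPKM in KO and Tie1 was at 0 in 6 of 12 libraries. The 9 fibroblast markers summed to 12.7 to 13.8 FPKM in WT and 8.59 to 9.29 in KO, with 3 called lower. Mast cell markers summed to 5.17 to 6.10 and 0.996 to 1.62 FPKM with 5 of 5 lower, and T cell markers to 2.68 to 2.86 and 0.471 to 0.625 FPKM with 4 of 5 tested lower. Of the 8 large peritoneal macrophage markers, 1 was higher and 3 were lower, and they summed to 31.0 to 32.6 FPKM in WT and 11.2 to 14.0 in KO. Cxcl13 made up most of that sum (26.0 to 27.4 FPKM in WT, 8.27 to 11.2 in KO). Gata6, the transcription factor gene that defines that subset, was at most 0.278 FPKM in any library and was not called (-0.22 ± 0.32, edgeR adjusted p = 0.678). Timd4, another marker of that list, was at 1.32 to 1.61 FPKM in WT and 0 to 0.0378 in KO (-6.57 ± 0.62, edgeR adjusted p = 9.98e-07). Icam2 was also lower (-0.51 ± 0.17, edgeR adjusted p = 0.032), and Selp was the higher one (1.11 ± 0.35, edgeR adjusted p = 0.0274). Of the 8 general macrophage markers, 7 were lower and Cd68 was higher. Mesothelial and epithelial markers had no call, at 2.06 to 2.75 and 0.839 to 1.13 FPKM in untreated KO. The part of these differences in the levels of the 5 genes was not tested.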

How the data were processed

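The deposited table holds columns headed count and FPKM per gene for 12 libraries, both made before deposit. Whether the counts are unmodified reads is not known, since values of 4, 8 and 12 and zeros were over-represented, as given above. The fits took them as read counts. HISAT2 2.0, Bowtie 0.12.2 and build mm8 are named in the submitters' processing notes. The deposited coordinates overlapped GRCm38.p6 positions for 99.93% of 21990 genes matched by Entrez identifier, so positions are given as GRCm38. The sources used here do not name the counting tool or its annotation.

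Counts of 17291 genes kept by filterByExpr were fitted with edgeR 4.0.16 (R 4.3.3) quasi-likelihood, TMM scaling and the 4 groups together with no block. Genes were called where the p-value, adjusted over all tested genes by Benjamini-Hochberg, was under 0.05, and ± after a log2 value is its SE. Alternatives were library totals, DESeq2 size factors, DESeq2 1.42.0, no filter, limma 3.58.1 on log2(FPKM + 1) and log2(FPKM + 0.1), a replicate block and each library left out. All 24 per-sample columns were used. Same-numbered replicates did not deviate together (r from -0.046 to 0.033 over 18 pairs). CPM for likeness used a prior count of 0.5.

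The members and the gene lists were chosen with earlier results of these data known. Genes named in the text were the 5 members, the nearest tested gene on either side, the 3 most alike by Pearson r and, for untreated KO against WT and in the TCEAL and BEX list also for oxLDL in WT, up to 2 per direction and list with the smallest p. Bex3, Myc, Kif4, Dlg3, Klf9, Dkk3, Notum, the untested antagonists, the X-linked genes plotted and single markers other than the highest were named after their values were seen. Other genes that the rule picks are not reported here. Promoter and protein sequences were not used here.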

Additional observations from a re-analysis of the deposited data

Results flagged for a closer look

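In the TCEAL, BEX and elongation factor S-II list, 9 genes were tested besides Tceal7. By edgeR's interaction test, the oxLDL change was more positive in KO than in WT for 6 of them and more negative for 1. Tceal5, at 0 counts in treated WT, is among the 6. Of all tested genes 41.7% were called, 22.1% and 19.6% in these directions. The 4 genes given here are those that the naming rule picked. Bex1, next to Tceal7, fell by 3.01 ± 0.24 on the log2 scale in WT and differed by 0.53 ± 0.17 in KO, a difference between genotypes of 3.54 ± 0.30 (edgeR adjusted p = 2.44e-07). Tceal9 changed by -1.02 ± 0.13 in WT and -0.02 ± 0.12 in KO, a difference of 0.997 ± 0.179 (edgeR adjusted p = 0.000395). Tceal8 changed by -0.86 ± 0.11 in WT and 0.06 ± 0.10 in KO, a difference of 0.93 ± 0.15 (edgeR adjusted p = 0.000143). Tcea1 moved the other way, by 0.95 ± 0.05 in WT and 0.01 ± 0.05 in KO, a difference of -0.94 ± 0.07 (edgeR adjusted p = 6.41e-08).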

How the results depend on the processing

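The falls of Mamdc2 (-2.67 to -1.25) and Tceal7 (-3.96 to -0.53) with oxLDL in WT kept direction and call in all 19 alternatives. For Awat1 and Sfrp5 the same difference is not read as a test, and its value was smaller with limma on log2(FPKM + 1) and log2(FPKM + 0.1) for Awat1 (-0.0587 and -0.46) and Sfrp5 (-0.0725 and -0.54). Leaving out 1 library gave -5.64 to -3.91 for Awat1 and -6.35 to -4.86 for Sfrp5. For Scgb1a1 that range was -1.28 to 0.0796 in WT (reached without WT oxLDL replicate 3), -0.0248 to 0.167 in KO (-0.00613 without KO oxLDL replicate 3, -0.0248 without KO replicate 3) and -0.0248 to 1.33 for KO minus WT (-0.0248 without WT oxLDL replicate 3). For Awat1 in KO it was -0.22 to 0.0399, with 0.0399 without KO oxLDL replicate 2, and its KO minus WT value was -0.0145 with limma on log2(FPKM + 1). The cause of these changes was not tested.

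The 2 genes called with oxLDL in KO became 1 with no filter, 97 with DESeq2, 1 and 0 with limma at pseudocounts 1 and 0.1, and 0 with a replicate block. Leaving out 1 library gave 0 to 57 (57 without WT oxLDL replicate 1). Counts of the other 4 contrasts stayed within 1.5 times. With the replicate block the WT oxLDL value was -2.63 for Tceal7 (edgeR adjusted p = 0.00227) and -2.26 for Mamdc2, both still called, and the untreated KO calls of Soat2, Nkd1 and Myc were lost. With library totals, the share of untreated KO calls that were higher was 31.5% against 47.8%. The same share was 21.1% against 46.8% for oxLDL in WT, 69.5% against 52.8% for KO with oxLDL and 79.6% against 53.0% for the interaction. That scaling put the median of all genes at -0.46 for oxLDL in WT, against -0.06. The 4 and 1 TCEAL and BEX calls in untreated KO had the same counts under all 7 other settings with every library. The low WT counts limit the ratios of Awat1 and Sfrp5, and the floor covers the counting error of single reads only. Low counts here held more zeros than single reads would.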
